A study of Mus musculus with 12 samples.

Results

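Transcripts of 9 genes of the extracellular matrix and of the cells that make it were followed through 12 macrophage libraries. The genes were Col1a1, Col1a2, Col3a1, Col6a1, Sparc, Fstl1, Cald1, Lrrc17 and Fn1, which is 9 of the 24781 rows of the table, and all 9 were among the 9580 genes with a mean above 1 normalised molecule per library. They had been chosen from these same values, because they varied between libraries, so their levels and the difference between groups are given as a description with no test. Tumour-associated macrophages (TAMs), defined as CD45+CD11b+F4/80high cells, were sorted from MC38 tumours, a mouse colon adenocarcinoma line grown in the skin of the flank, on day 7 after inoculation. All mice were wild type (WT) and differed in the agent injected, which was the solvent DMSO in 6 libraries and picrotoxin, a blocker of the ionotropic GABA type A receptor, in the other 6. Each library was made from 100 cells and is named here by its group and number, from DMSO 1 to DMSO 6 and from picrotoxin 1 to picrotoxin 6. In the methods of the study each library came from its own mouse, but the figure text counts fewer mice than libraries, so p-values would be too small if libraries shared a mouse.

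Interstitial matrix is laid down mostly by fibroblasts, which secrete fibrillar collagens, chiefly types I and III, together with collagen VI microfibrils and glycoproteins such as fibronectin and SPARC. Procollagen chains are modified and folded in the endoplasmic reticulum with the help of a dedicated chaperone, HSP47, and the fibrils are cross-linked outside the cell. Macrophages are better known for taking up and degrading collagen than for making fibrils, although they do express fibronectin and some collagen genes.

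The promoters of 3 members are shown because their transcripts were distributed differently over the libraries. Col1a2 was concentrated in a single library, Col3a1 was spread over several, and Lrrc17 was counted at 189 molecules or more in every one. RefSeq held a promoter, from 250 bases before to 50 after an annotated start on GRCm38.p6, for 7 of the 9 genes. No entry was used for Col1a1 or Fn1. Capitals mark matches on either strand to 4 motifs, the CCAAT box, the TATA box with the letters TATAAA, the GC box with the letters GGGCGG and the AP-1 site with the letters TGACTCA.
Col1a2, chr6:4505368-4505667, plus strand: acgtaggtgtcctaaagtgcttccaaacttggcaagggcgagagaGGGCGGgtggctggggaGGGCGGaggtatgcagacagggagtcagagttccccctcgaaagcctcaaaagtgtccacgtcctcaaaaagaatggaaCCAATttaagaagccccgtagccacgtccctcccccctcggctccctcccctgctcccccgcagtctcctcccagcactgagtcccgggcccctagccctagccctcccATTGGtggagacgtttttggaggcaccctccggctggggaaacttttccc
Col3a1, chr1:45311288-45311587, plus strand: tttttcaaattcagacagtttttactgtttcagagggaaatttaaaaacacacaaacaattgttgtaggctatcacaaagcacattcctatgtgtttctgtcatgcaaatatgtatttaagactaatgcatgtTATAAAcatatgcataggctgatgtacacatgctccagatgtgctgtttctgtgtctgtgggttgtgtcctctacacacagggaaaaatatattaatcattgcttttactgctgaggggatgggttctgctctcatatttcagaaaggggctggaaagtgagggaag
Lrrc17, chr5:21543277-21543576, plus strand: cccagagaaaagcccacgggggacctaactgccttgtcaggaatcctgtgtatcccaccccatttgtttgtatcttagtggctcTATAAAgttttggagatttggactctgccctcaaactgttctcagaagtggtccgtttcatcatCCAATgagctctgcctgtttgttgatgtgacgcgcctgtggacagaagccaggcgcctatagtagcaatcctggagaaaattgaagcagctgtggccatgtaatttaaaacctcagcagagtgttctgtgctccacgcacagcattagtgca
The Col1a2 window held 2 matches to CCAAT and 2 to GGGCGG, that of Col3a1 a single TATAAA, and that of Lrrc17 one CCAAT and one TATAAA. Over all 32851 promoters of that table, 37.4% held CCAAT, 13.6% TATAAA, 35.7% GGGCGG and 5.20% TGACTCA. Of the 7 genes with an entry, 3 held CCAAT, 3 TATAAA, 3 GGGCGG and 2 TGACTCA in at least 1 promoter, and the matches are letters in a window, not binding sites.

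Library totals ran from 201697 to 309617 molecules, with 9846 to 10866 genes detected. Of 13 macrophage markers 13 passed the filter on low values, and together they took 0.911% to 1.27% of molecules in DMSO and 1.11% to 1.26% in picrotoxin libraries. The highest sums in any library were 21 molecules for 10 epithelial markers, 14 for 10 endothelial, 10 for 7 neutrophil, 3 for 4 B cell, 2 for 7 keratinocyte and 1 for 5 adipocyte markers. Of the 21 epithelial molecules, counted in picrotoxin 5, 20 were Cdh1. The defining markers Epcam and Krt18 were among 7 epithelial markers at 0 in every library. Skeletal muscle markers were at 49 molecules in DMSO 3, of which 37 were Myh1, and at 2 or fewer elsewhere, and T and NK cell markers were at 22 in picrotoxin 6, of which 20 were Gzmb. Fewer cells of a type and less RNA per cell cannot be told apart in libraries of pooled cells.

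The fibrillar collagens were the most uneven of the members. Values are normalised molecules, the deposited counts divided by a size factor of the library, and they are not scaled for transcript length, so levels are not compared between genes. Col1a1 (chromosome 11, 94936224 to 94953042, plus strand), which encodes the alpha-1 chain of type I collagen, had a lowest, median and highest value of 0, 0.976 and 159.5 in DMSO and of 0, 0 and 2.12 in picrotoxin libraries. Of its 204 molecules in all 12 libraries, 195 were in DMSO 5 (95.6%), and no other library held more than 4. The means were 27.4 ± 64.7 in DMSO and 0.533 ± 0.89 in picrotoxin libraries (n = 6 each, ± SD), so the SD exceeded the mean in both groups. The groups overlapped, with 2 DMSO libraries above the highest picrotoxin library.

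Col1a2 (chromosome 6, 4504814 to 4541544, plus strand), the partner chain of the type I trimer, repeated that distribution. Its lowest, median and highest values were 1.02, 2.59 and 86.7 in DMSO and 0, 2.05 and 2.76 in picrotoxin libraries, and DMSO 5 held 106 of its 132 molecules (80.3%). Outside DMSO 5 the most in any library was 7 molecules, in DMSO 4. The group means of 16.9 ± 34.2 and 1.71 ± 1.003 (n = 6 each, ± SD) therefore rested mostly on a single library.

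Col3a1 (chromosome 1, 45311538 to 45349706, plus strand), which encodes type III collagen, was found in every library and was high in 3 DMSO libraries rather than 1. It stood at 190.6 normalised molecules in DMSO 5, 96.3 in DMSO 3 and 31.5 in DMSO 6, against 3.71 to 7.28 in DMSO 1, 2 and 4. Picrotoxin libraries ran from 3.15 through a median of 9.71 to 14.95, so the low DMSO libraries lay inside the picrotoxin range and the 3 high ones above it. The means were 55.6 ± 75.04 in DMSO and 9.25 ± 5.64 in picrotoxin libraries (n = 6 each, ± SD). A stretch of 141 bases of the Col3a1 transcript recurs in the annotated gene Gm47302 on the same strand, so that part of its count is uncertain.

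Col6a1 (chromosome 10, 76708792 to 76726168, minus strand), a chain of the collagen VI microfibrils that anchor cells to the fibrils, was high in the same 3 libraries. It was at 43.4 normalised molecules in DMSO 5, 38.9 in DMSO 3 and 21.2 in DMSO 6, with 1.86 to 4.16 in the other DMSO libraries. In picrotoxin libraries its lowest, median and highest values were 2.10, 3.74 and 14.95, and the high end came from picrotoxin 5, followed by picrotoxin 1 at 9.22. Its means were 18.8 ± 18.8 and 6.13 ± 5.01 (n = 6 each, ± SD), and the groups overlapped.

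**Figure D1:**
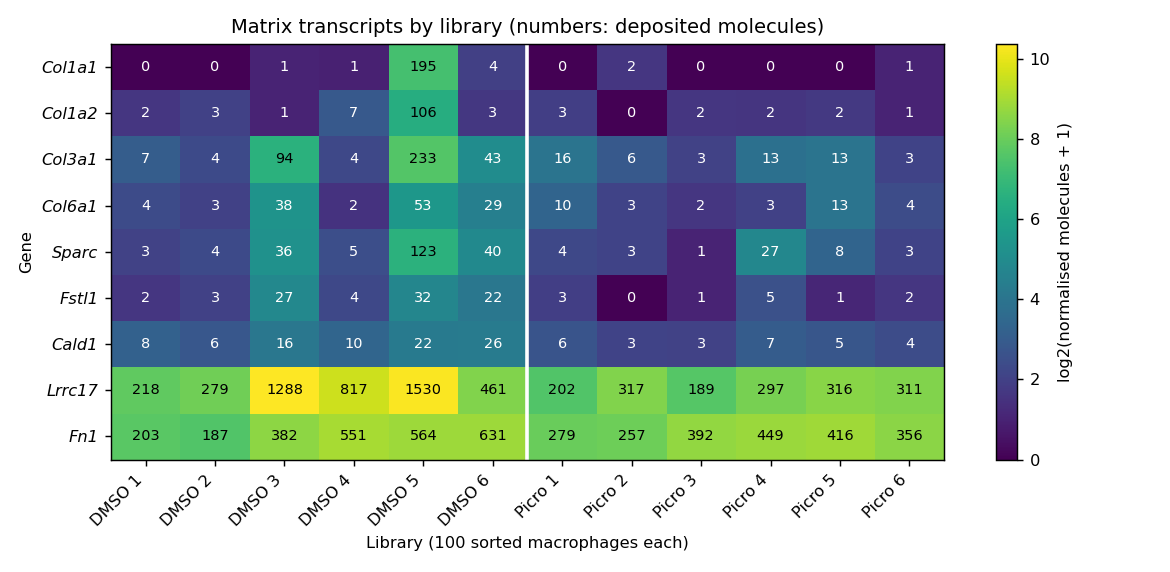
Heat map of the 9 genes (rows) in the 12 libraries (columns), coloured by log2 of normalised molecules plus 1, with the deposited number of molecules written in each cell and a white line between the groups. Col1a1 and Col1a2 stand out in DMSO 5 alone, with 195 and 106 molecules, whereas Col3a1, Col6a1, Sparc and Fstl1 are high in DMSO 3, 5 and 6.

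Among the matrix glycoproteins, Sparc (chromosome 11, 55394500 to 55423183, minus strand), which encodes a collagen-binding matricellular protein, was at 100.6 normalised molecules in DMSO 5, 36.9 in DMSO 3 and 29.3 in DMSO 6. The other DMSO libraries held 3.12 to 4.64. Picrotoxin libraries ran from 1.05 through a median of 3.45 to 27.1, and the highest of these, picrotoxin 4, stood near the level of DMSO 6. The means were 29.8 ± 37.6 in DMSO and 7.90 ± 9.79 in picrotoxin libraries (n = 6 each, ± SD).

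Fstl1 (chromosome 16, 37776873 to 37836514, plus strand), which encodes a secreted glycoprotein made by mesenchymal cells, was highest in DMSO 3, at 27.7 normalised molecules, followed by DMSO 5 at 26.2 and DMSO 6 at 16.1. Its median was 9.91 in DMSO and 1.65 in picrotoxin libraries, which ran from 0 to 5.02. The means were 13.1 ± 11.9 and 2.02 ± 1.75 (n = 6 each, ± SD), and the 3 remaining DMSO libraries, at 2.08 to 3.71, lay among the picrotoxin libraries.

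Cald1 (chromosome 6, 34598500 to 34775473, plus strand), which encodes the actin-binding protein caldesmon, varied least among the 7 genes described so far. The lowest, median and highest values were 5.96, 12.8 and 19.0 in DMSO and 3.15, 4.91 and 7.02 in picrotoxin libraries. Here 5 of the 6 DMSO libraries lay above the highest picrotoxin library, and DMSO 2 was the exception. The means were 12.8 ± 5.62 and 4.82 ± 1.55 (n = 6 each, ± SD). Its dispersion, the variation between libraries beyond counting noise, was at the 70.6th percentile of all genes tested, against the 97.9th to 99.9th for the collagens, Sparc and Fstl1.

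Lrrc17 (chromosome 5, 21543559 to 21575904, plus strand), which encodes a secreted protein with leucine-rich repeats, followed a partly different order. It stood at 1319 normalised molecules in DMSO 3, 1252 in DMSO 5 and 757.9 in DMSO 4, a library in which the collagens were low, and at 226.8 to 337.6 in DMSO 1, 2 and 6. Picrotoxin libraries were between 186.2 and 363.4 with a median of 315.6, so 3 of the 6 DMSO libraries lay inside that range. The means were 695 ± 495 and 286 ± 75.5 (n = 6 each, ± SD). Lrrc17 overlaps Fbxl13 on the opposite strand, but the Fbxl13 row held 0 molecules.

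Fn1 (chromosome 1, 71585520 to 71653200, minus strand), which encodes fibronectin, was the member without a difference between the group means, at 370 ± 139 in DMSO and 375 ± 91.8 in picrotoxin libraries (n = 6 each, ± SD). Its lowest, median and highest values were 185.7, 426 and 511.1 in DMSO and 257.1, 397 and 478.4 in picrotoxin libraries. In both groups the libraries numbered 1 and 2 were the lowest. Fn1 shares a segment of 198 bases with Apol7d, which lies on the opposite strand.

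**Figure D2:**
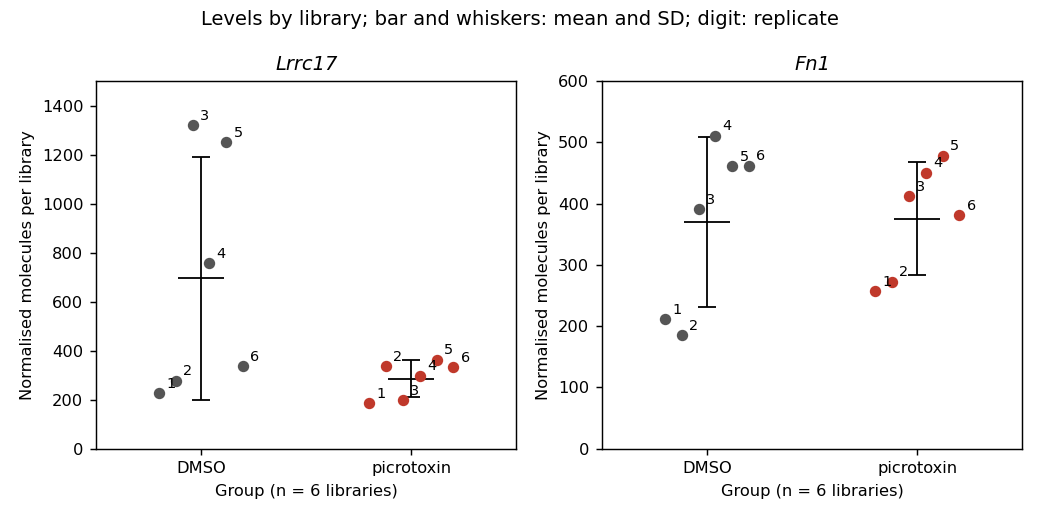
Normalised molecules of Lrrc17 (left) and Fn1 (right) in each library, with the replicate number beside each point and the mean and SD of 6 libraries per group in black. DMSO 3, 5 and 4 stand at 758 to 1319 for Lrrc17, above all picrotoxin libraries, whereas the 2 groups cover nearly the same range for Fn1.

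In the fit over all genes tested (edgeR, quasi-likelihood test), the log2 fold change of picrotoxin over DMSO was -5.50 for Col1a1 (SE 1.40), -3.28 for Col1a2 (SE 0.90), -2.57 for Col3a1 (SE 0.62) and -1.63 for Col6a1 (SE 0.51). It was -1.94 for Sparc (SE 0.59), -2.62 for Fstl1 (SE 0.57), -1.41 for Cald1 (SE 0.32), -1.26 for Lrrc17 (SE 0.27) and 0.03 for Fn1 (SE 0.17). The median over the 9 was -1.94, beside -0.01 over all genes tested. None of the 9 had a Benjamini-Hochberg adjusted p under 0.05 in edgeR or in DESeq2, beside 0.0522% of all genes tested in edgeR. An unadjusted edgeR p under 0.05 was given to 8 of 9, all lower with picrotoxin, beside 4.11% of all genes lower and 3.65% higher. DESeq2 gave no p to 2 of the 9, Col1a1 and Col1a2, because of an extreme count. The 2 groups separated without overlap for 0 of 9 members, beside 0.188% of all genes lower and 0.198% higher. These counts describe genes chosen for this variation, and nothing is read from them.

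The difference between groups depended on which DMSO libraries were kept. The ratio of the DMSO to the picrotoxin mean over all 12 libraries was 51.5 for Col1a1, 9.90 for Col1a2, 6.01 for Col3a1, 3.06 for Col6a1, 3.76 for Sparc and 6.49 for Fstl1. Without DMSO 5 the ratios were 1.83, 1.73, 3.09, 2.26, 1.97 and 5.20, in the same order. Type I collagen thus lost most of its difference with that library alone, whereas Fstl1 kept most of it.

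Leaving out DMSO 3 as well brought the ratio to 1.26 for Col3a1, 1.23 for Col6a1, 1.30 for Sparc and 3.08 for Fstl1. Without DMSO 3, 5 and 6, a choice made after the values were seen, the direction turned for Col1a1 (0.581), Col3a1 (0.539), Col6a1 (0.49) and Sparc (0.495). It stayed the same for Col1a2 (2.26), Fstl1 (1.45), Cald1 (1.63) and Lrrc17 (1.47). Col1a1 then rested on 1 DMSO molecule and 3 picrotoxin molecules. The Cald1 ratio was 2.66 over all libraries, 2.45 without DMSO 5 and 2.21 without DMSO 3 and 5, and that of Fn1 was 0.987, 0.938 and 0.912.

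**Figure D3:**
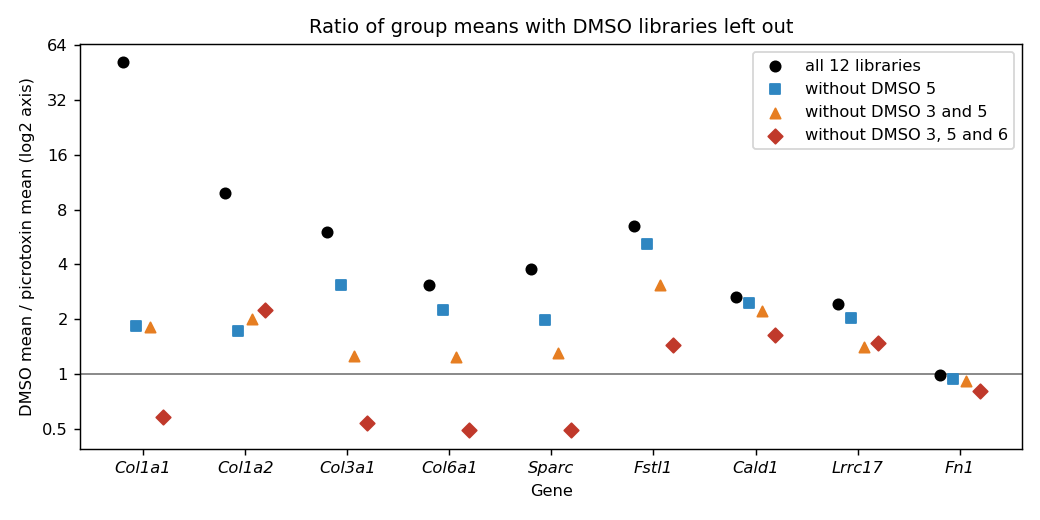
Ratio of the DMSO mean to the picrotoxin mean of normalised molecules (log2 axis) for each gene, over all 12 libraries and with 1, 2 or 3 DMSO libraries left out, and a grey line at equal means. The ratio of Col1a1 goes from 51.5 to 1.83 without DMSO 5, and Col1a1, Col3a1, Col6a1 and Sparc lie below the line without DMSO 3, 5 and 6.

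Replicates 1 and 2 were also read apart from 3 to 6, although the labels name no batch. Among replicates 3 to 6 the ratio of the means was 9.37 for Col3a1, 4.33 for Col6a1, 4.23 for Sparc, 7.87 for Fstl1, 3.10 for Cald1 and 3.07 for Lrrc17. In replicates 1 and 2 the ratios were 0.533, 0.576, 1.03, 1.83, 1.64 and 0.964 in that order, from 2 libraries a group. The DMSO mean of Col3a1, Col6a1 and Lrrc17 was thus the higher one in replicates 3 to 6 and not in replicates 1 and 2. Not every DMSO library numbered 3 to 6 was high, as DMSO 4 was at 3.71 for Col3a1 and 1.86 for Col6a1. The genes were chosen from these same values, so nothing is read from the split. The Fn1 ratio was 1.06 and 0.749.

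Summed over the 7 genes other than Lrrc17 and Fn1, DMSO libraries held 1226 molecules and picrotoxin libraries 188. The sum made up 0.276% of molecules in DMSO 5 (95% Wilson interval 0.257 to 0.296), 0.0926% in DMSO 3 (0.081 to 0.106) and 0.0539% in DMSO 6 (0.0464 to 0.0628). The other 3 DMSO libraries held 0.00985% to 0.0132%, inside the range of 0.00528% to 0.0238% of the 6 picrotoxin libraries. The means were 0.0762% ± 0.103 in DMSO and 0.0137% ± 0.00771 in picrotoxin libraries (n = 6 each, ± SD), a ratio of 5.58, whereas the ratio of the medians was 2.73.

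The 3 high libraries differed in make-up. Type I collagen (Col1a1 and Col1a2 together) gave 301 of the 764 molecules of the 7 genes in DMSO 5, or 39.4% (95% Wilson interval 36.0 to 42.9). It gave 2 of 213 in DMSO 3, or 0.939% (0.258 to 3.36), and 7 of 167 in DMSO 6, or 4.19% (2.05 to 8.40). The intervals of DMSO 5 and of the other 2 libraries did not overlap, and Col3a1 was present in all 3, with 233, 94 and 43 molecules. These intervals cover counting error only.

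**Figure D4:**
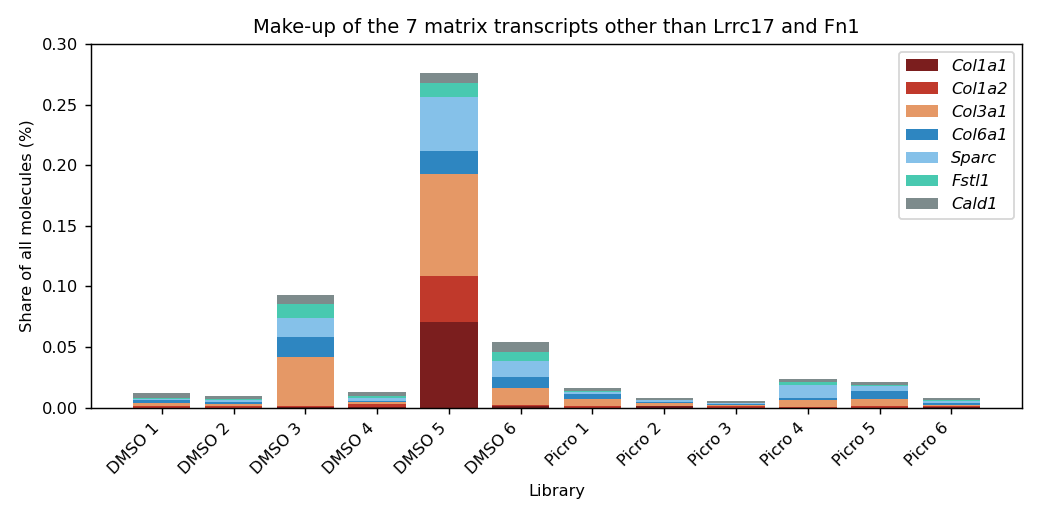
Share of all molecules (%) taken by Col1a1, Col1a2, Col3a1, Col6a1, Sparc, Fstl1 and Cald1 in each of the 12 libraries, stacked by gene. The stack reaches 0.276% in DMSO 5, 0.0926% in DMSO 3 and 0.0539% in DMSO 6 and stays at or below 0.0238% elsewhere, and the dark red and red type I collagen segments are visible mainly in DMSO 5.

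Co-variation between the members was described by Spearman's rho over the 12 libraries, which share depth and composition within a library. Over the 36 pairs, rho ran from -0.07 to 0.86 with a median of 0.46. The closest pairs were Col3a1 with Col6a1 (0.86), Sparc with Fstl1 (0.86), Fstl1 with Cald1 (0.85) and Col3a1 with Sparc (0.80). For Col3a1 with Col6a1 it was 1 within DMSO and 0.77 within picrotoxin libraries, and for Sparc with Fstl1 it was 0.94 and 0.77, so the order of the libraries was the same for both genes of a pair only for Col3a1 with Col6a1 within DMSO, among these 4 values. The median over pairs was 0.66 within DMSO and 0.31 within picrotoxin libraries, from 6 libraries each.

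The chains of type I collagen showed no common order by rank. Col1a1 with Col1a2 gave -0.07 over 12 libraries, and Col1a2 gave 0.15 with Col3a1 and -0.01 with Col6a1. Ranks weigh the other 11 libraries, which held 0 to 4 molecules of Col1a1, as much as DMSO 5, where both chains were highest. Lrrc17 was closest to Sparc (0.74) and Col1a1 (0.65), and Fn1 to Lrrc17 (0.62).

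Among all other tested genes with a mean of at least 5 normalised molecules, Serpinh1 was most like the sum of Col1a1, Col1a2 and Col3a1, with a rho of 0.97 over 12 libraries, 0.89 within DMSO and 0.93 within picrotoxin libraries. It encodes HSP47, the collagen chaperone, and held 46 molecules in DMSO 3, 41 in DMSO 5, 17 in DMSO 6 and 0 to 9 in every other library. The next 9 were Nifk, Nedd4, Snhg8, Rhox5, 5730408K05Rik, Gatad1, Aimp2, Cisd3 and Gng11, at 0.92 to 0.87. Most like Lrrc17 were Apopt1 (0.90), Hs2st1 (0.87), C1qbp, Ddx27 and Gars (0.86 each). Fn1 was most like Rrp15 (0.87), Pptc7 (0.86), Pfdn2 (0.84), Nudcd2 and Agap1 (0.83 each).

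Other genes of the same pathways were read from 7 lists that hold no member and cover collagens, their processing, matrix glycoproteins and proteoglycans, fibroblast identity and contractile genes. Of their 127 genes 55 were tested, and 0 had an adjusted p under 0.05 in edgeR or in DESeq2. An unadjusted edgeR p under 0.05 was given to 20 lower and 1 higher, beside 4.11% and 3.65% of all genes tested. DESeq2 gave 8 lower and 1 higher, where 2.05% of all genes tested were lower in DESeq2. The median log2 fold change was -0.60, beside -0.01 over all genes. Of the 55, 12 passed the filter only through the DMSO group, 9 of them among the 20, and 0 only through the picrotoxin group. Those 9 were Col12a1, Loxl2, Cyr61, Postn, Lamb1, Bgn, Gas1, Mmp2 and Tpm2. Their lower sign was largely set by the filter, so the counts by list below are a description. Over all genes tested, 71 of the 394 lower ones passed the filter only through the DMSO group. Without DMSO 3, 5 and 6 the count was 2 lower and 2 higher, beside 2.60% of all genes lower, and the median 0.19.

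Fibrillar collagens other than the members had 3 of 8 genes tested. Col5a1, a regulator of fibril diameter, held 25, 24 and 21 molecules in DMSO 3, 5 and 6 and 0 to 7 elsewhere (log2 fold change -1.82, SE 0.51, adjusted p 0.249 in edgeR). Col5a2 held 19 in DMSO 5 and 8 in DMSO 3 (-1.87, SE 0.72), and Col5a3 had a value of -0.51 (SE 0.47). Of the other collagens, 7 of 16 were tested and 2 had an unadjusted p under 0.05, both lower. Col6a2, the partner chain of Col6a1, held 36 molecules in DMSO 3, 32 in DMSO 5 and 20 in picrotoxin 5 (-1.23, SE 0.57), and the basement membrane collagen Col4a1 had a value of -0.56 (SE 0.29). Col12a1, a collagen that coats fibrils, was at 32 molecules in DMSO 5 and at 0 or 1 in the other 11 libraries.

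Genes that modify, fold and cross-link collagen had 17 of 31 tested, and the median log2 fold change was -0.10. An unadjusted p under 0.05 was given to 2, Serpinh1 (-2.01, SE 0.63, adjusted p 0.312 in edgeR) and the cross-linking enzyme gene Loxl2. Loxl2 did not follow the 3 high libraries, with 4, 3, 1, 3, 2 and 2 molecules in DMSO 1 to 6 and 1 molecule in all picrotoxin libraries together. Pcolce, an enhancer of procollagen cleavage, had a value of -1.23 (SE 0.74).

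Matricellular and fibril glycoproteins had 13 of 29 tested, with 4 lower and 1 higher at an unadjusted p under 0.05. Cyr61, a matricellular gene, was highest in DMSO 3, with 41 molecules, and held 10 in DMSO 6 and 6 in DMSO 5 (-4.28, SE 1.06, adjusted p 0.134 in edgeR). Postn, which encodes periostin, held 23 of its 25 molecules in DMSO 5 and 0 in picrotoxin libraries. Lamb1, a laminin chain, had a value of -1.90 (SE 0.72). Tgfbi was the gene on the higher side, at 0.22, and held 376 to 629 molecules in every library. Proteoglycans had 3 of 10 tested and 3 of 3 lower at an unadjusted p under 0.05, namely Bgn with 32 of 33 molecules in DMSO 5, Dcn (-1.44, SE 0.67) and Vcan (-1.06, SE 0.42).

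Fibroblast identity genes had 7 of 18 tested, 4 of them lower at an unadjusted p under 0.05. Cd34, also a marker of endothelial and progenitor cells, held 30, 24, 22 and 13 molecules in DMSO 5, 6, 3 and 4 and 0 to 7 elsewhere (-2.15, SE 0.55, adjusted p 0.147 in edgeR). Gas1 (-3.63, SE 0.98), Serpinf1 (-1.40, SE 0.60) and Mmp2 (-2.12, SE 0.97) had the same sign. Mmp2 held 18 molecules in DMSO 5, 5 in DMSO 3 and at most 2 elsewhere. Pdpn, the gene of this list with most molecules, had a value of -0.08 (SE 0.17). The defining receptor gene Pdgfra held 6 molecules in DMSO 5, 5 in DMSO 3 and at most 2 elsewhere, Pdgfrb 4 in DMSO 5, Thy1 at most 1 in any library, and Fap 0 in all. The sum of the 18 genes ran from 31 to 145 molecules in DMSO and from 37 to 55 in picrotoxin libraries. Pdpn alone gave 29 of the 31 in DMSO 1, 56 of the 145 in DMSO 5 and 51 of the 55 in picrotoxin 6. The low sums were thus mostly Pdpn. The part of these 18 genes in the values of the members was not tested.

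Contractile and mural genes had 5 of 15 tested, with 3 lower at an unadjusted p under 0.05. These were Tpm2 (-2.65, SE 0.94), Tpm1 (-0.84, SE 0.33), which held 52, 50 and 31 molecules in DMSO 3, 6 and 5, and Cnn3 (-0.60, SE 0.28). The myofibroblast marker Acta2 was at 2 molecules or fewer in every library. Tagln was at 0 in all, as 1 of 7 genes of this list without a molecule. Rows at or near 0 cannot show whether Cald1 varied with those genes. The skeletal muscle gene Myh1 was counted in DMSO 3 alone.

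Receptors for matrix and the TGF-beta pathway, which drives collagen transcription in fibroblasts, were read from 2 further lists. Of 12 receptors tested, 2 were lower and 3 higher at an unadjusted p under 0.05, with a median of 0.04. The syndecan genes Sdc4 and Sdc1 had values of 0.58 (SE 0.16) and -2.58 (SE 0.89). The 2 lower receptors were Sdc1, with 3, 7 and 6 molecules in DMSO 3, 5 and 6 and at most 2 elsewhere, and the collagen receptor gene Ddr2, with 18, 8 and 11 there and at most 8 elsewhere. The value of the hyaluronan receptor gene Cd44 was 0.26 (SE 0.11). Of 11 genes of the TGF-beta list tested, 0 had an unadjusted p under 0.05 in edgeR, with a median of 0.02. Tgfb1, Tgfb3 and Smad7 had values of 0.17 (SE 0.16), -0.89 (SE 0.54) and 0.30 (SE 0.27). Of 13 macrophage markers tested, 2 were higher and 0 lower at an unadjusted edgeR p under 0.05, beside 3.65% and 4.11% of all genes. Itgam, Mrc1 and Cd14 had values of 0.38 (SE 0.13), 0.48 (SE 0.18) and 0.23 (SE 0.12). In other cell type lists, Cdh1 was at 0.70 (SE 0.26), Pecam1 at 0.78 (SE 0.49) and Cd79b at 0.61 (SE 0.64). The neutrophil genes Csf3r and Cxcr2 were at 0.51 (SE 0.38) and -0.75 (SE 0.68).

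**Figure D5:**
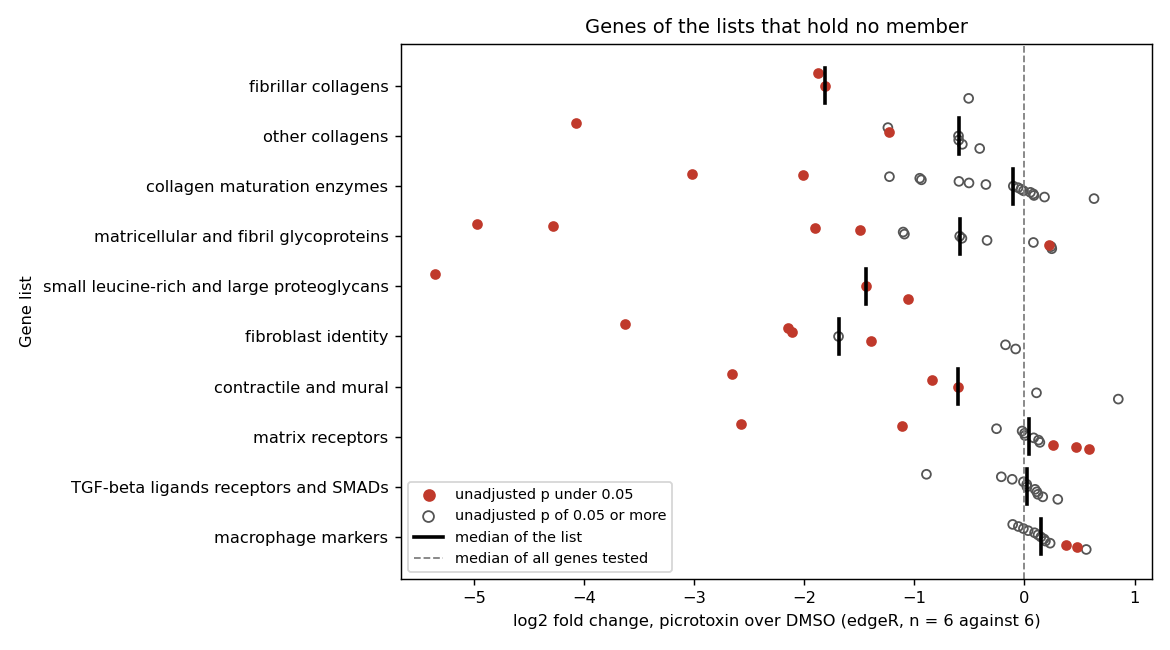
Log2 fold change of picrotoxin over DMSO for each tested gene of the 10 lists with at least 3 tested genes, none of which is a member, with the median of each list in black and that of all genes tested as a dashed line. Collagen, proteoglycan, fibroblast and contractile genes lie mostly below 0. Over the first 7 lists 44 of 55 are negative, beside 4871 of all 9580 genes tested, and the lists were chosen with earlier results known. The medians of receptors, the TGF-beta list and macrophage markers are 0.04, 0.02 and 0.15. The values of Postn and Bgn, at 0 in picrotoxin libraries, depend on the prior count of the fit.

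A single library held at least 75% of the molecules for 10 of the 8839 genes with 20 or more molecules, a rule chosen after the values were seen. DMSO 5 accounted for 7 of the 10, which were Col1a1, Col1a2, Col12a1, Postn, Bgn, Mmp3 (63 of 63 molecules) and Saa3 (98 of 102). Mmp3 encodes a matrix-degrading stromelysin and Saa3 an acute-phase protein. DMSO 3 accounted for the muscle genes Ttn (42 of 48) and Myh1 (37 of 37), and picrotoxin 6 for Gzmb.

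The summed share of the 7 genes was compared with 4 properties of the libraries that did not enter the choice of genes. The share itself is made of the values from which the genes were chosen, and the 7 genes count among the genes detected. Permutations over 12 libraries ignored group, although the median of genes detected was 10375 in DMSO and 9957.5 in picrotoxin libraries. The share had medians of 0.0336% in DMSO and 0.0123% in picrotoxin libraries. On a log2 scale it was higher in libraries with more genes detected (Pearson's r = 0.90, permutation p = 0.00031, adjusted over 4 relations 0.00124; Spearman's rho = 0.90, permutation p = 0.00021, adjusted 0.00084; 12 libraries). Without DMSO 5 and 6, the libraries farthest from the median, r was 0.89. It was 0.87 within DMSO (exact permutation p = 0.0458, adjusted 0.0917) and 0.86 within picrotoxin libraries (exact permutation p = 0.0431, adjusted 0.172). At full depth the relation thus passed in neither group after adjustment. When every library was drawn down to 201697 molecules, a choice made after the values were seen, r was 0.96 over 12 libraries (permutation p = 1e-05, the smallest that 100000 permutations can give, adjusted 4e-05; rho = 0.90, permutation p = 0.00032, adjusted 0.00128), and 0.92 without DMSO 3 and 5. At that depth r was 0.96 within DMSO (exact permutation p = 0.00278, adjusted 0.0111). Within picrotoxin libraries it was 0.85 (exact permutation p = 0.0306, adjusted 0.122) and fell to 0.66 without picrotoxin 4 and 5, so it did not pass after adjustment there.

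The same share was lower in libraries with a higher share of the 13 macrophage markers (r = -0.75, permutation p = 0.00586, adjusted 0.0117; rho = -0.77, permutation p = 0.00525, adjusted 0.0105; 12 libraries). Without DMSO 2 and 3 r was -0.75. It was -0.81 within DMSO (exact permutation p = 0.0458, adjusted 0.0917) and -0.40 within picrotoxin libraries (exact permutation p = 0.407, adjusted 0.543), so within neither group did it pass after adjustment. DMSO 3, 5 and 6 had macrophage marker shares of 0.911%, 1.06% and 1.08%, the lowest of the 12 libraries, which ran from 1.11% to 1.27% otherwise.

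Total molecules gave r = 0.55 (permutation p = 0.0615, adjusted 0.082; rho = 0.54, permutation p = 0.075, adjusted 0.1; 12 libraries), and 0.08 without DMSO 5 and 6, so that relation rested on those libraries. Within DMSO and within picrotoxin libraries it was 0.50 and 0.14. The share of the ribosomal RNA precursor Rn45s gave r = -0.24 (permutation p = 0.445, adjusted 0.445; rho = 0.06, permutation p = 0.852, adjusted 0.852; 12 libraries), 0.13 without DMSO 1 and 5, and 0.00 within DMSO and 0.53 within picrotoxin libraries. What links these properties to the members was not tested.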

How the data were processed

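Lysates of 100 sorted cells were heated to break the RNA, and reverse transcription from an oligo-dT primer gave each cDNA a molecular barcode before PCR. The authors mapped reads to mm10 with STAR, as the processing notes of the submitters list, against refFlat, and deposited counts of barcoded molecules for each gene symbol, in whole numbers. How they treated reads with several positions, strand and barcode errors is not given in the sources used here. Oligo-dT priming favours 3′ ends and stretches rich in A.

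Genes with a mean above 1 normalised molecule (counts divided by DESeq2 size factors) were tested with edgeR 4.0.16 (R 4.3.3), the quasi-likelihood test with TMM and Benjamini-Hochberg adjustment over all 9580 genes. DESeq2 1.42.0 with a Wald test was an alternative. p-values treat libraries as independent. Relations across libraries used Pearson's r and Spearman's rho with two-sided permutation tests (100000 permutations over 12 libraries, exact over 6, scipy 1.17.1). A count of 0 allowed a share of up to 0.000969% to 0.00149% (3 molecules) by library. Molecular barcodes remove PCR copies, and intervals and limits cover counting error only.

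The members and the gene lists were chosen with earlier results of these data known. The genes named were all members, of each list those called in edgeR, filled to 3 by smallest p, and of 5 lists the gene with most molecules. Pdgfra, Pdgfrb, Thy1, Fap, Mmp2, Acta2, Tagln, Epcam, Krt18, Tgfbi, Ddr2, Mmp3, Saa3 and Ttn were added after their values were seen. Likeness was ranked by rho, ties in table order, and 26 rows with a date in place of a symbol were left out of the ranking. Positions are those of GENCODE M21 on GRCm38, and shared segments are BLAST 2.17.0 matches of at least 100 bases at 97% identity between transcripts. The scripts were tested on simulated data. Alternatives were other scalings and filters, DESeq2, a replicate block and fits without single or several libraries.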

Additional observations from a re-analysis of the deposited data

Results flagged for a closer look

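The gap between an extreme library and its nearest neighbour, relative to the range of the group, was tested 56 times and was large in 10. Chance alone gives about 1 in 20, but 5 of the 10 concern members or their sum, which were chosen because they varied between libraries, so the number of such gaps is not read against chance. For the members, DMSO 5 stood apart for Col1a1, at 159.5 normalised molecules against 2.93 in the next library, for Col1a2, at 86.7 against 6.49, and for Sparc, at 100.6 against 36.9. It also stood apart for the summed share of the 7 genes, at 0.276% against 0.0926%. Picrotoxin 4 stood apart for Sparc, at 27.1 against 9.20, and for the matricellular and fibril glycoprotein list, at 1013 molecules against 781. Of the 1013, 263 were Spp1, which held 63 to 101 molecules in the other picrotoxin libraries. Skeletal muscle markers were at 49 molecules in DMSO 3 against 2, and T and NK cell markers at 22 in picrotoxin 6 against 2. Adipocyte markers were at 1 in picrotoxin 3 against 0, and B cell markers were lowest in the same library, at 1 against 2, both differences of 1 molecule. The causes were not tested.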

How the results depend on the processing

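Genes past an adjusted p of 0.05 in edgeR, of which there were 5 over all libraries, numbered 2 in DESeq2, 13 with library totals, 81 with every gene of at least 1 count, 43 with the replicate block, 49 in replicates 3 to 6 alone, and 1 both without DMSO 3 and 5 and without DMSO 3, 5 and 6. Their number ran from 0 to 25 over the 12 fits that each left out 1 library, being 0 without DMSO 5 or 6 or picrotoxin 2, 3 or 4 and 25 without DMSO 1. The rule of the study (unadjusted p in DESeq2) gave 366. The next counts are for all 18 lists, which are the 7 matrix, fibroblast and contractile lists and those of receptors, the TGF-beta pathway and cell types. There, 0 over all libraries became 15 with every gene of at least 1 count, 8 with the replicate block and 7 in replicates 3 to 6 alone. The number was 15 by the rule of the study and 0 to 3 with 1 library left out. Members with an adjusted p under 0.05 numbered 0 in edgeR over all libraries. They numbered 8 with the replicate block (43 of all 9580 genes tested) and 8 with every gene of at least 1 count (81 of 13815). In replicates 3 to 6 alone they numbered 7 (49 of 9666), and 5 without DMSO 1 (25 of 9586) or without DMSO 2 (23 of 9604). They numbered 3 without DMSO 4 (15 of 9568) or with library totals (13 of 9580). The members were chosen for this variation, so nothing is read from these counts.

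The ratio of the group means of the 7 summed genes was 1.57 without DMSO 3 and 5, 0.829 without DMSO 3, 5 and 6 and 2.60 to 6.36 with 1 library left out. Without DMSO 3, 5 and 6 the log2 fold change turned for Col3a1 (0.90), Col6a1 (0.9998), Sparc (0.99), Col5a1 (0.0039), Col5a3 (0.42), Col6a2 (0.60), Col4a1 (0.10), Serpinh1 (0.96), Dcn (0.85), Serpinf1 (0.61), Pdpn (0.073), Tpm1 (0.37) and Cd79b (-0.049). Without DMSO 3 and 5 it turned for Col5a2 (0.093), Col6a2 (0.30) and Dcn (0.54). Fn1, at 0.026 over all libraries, was at 0.30 without DMSO 3, 5 and 6, -0.033 with library totals, -0.0042 with a mean above 10, -0.066 in replicates 3 to 6 alone, and between -0.11 and 0.13 with 1 library left out. Pdpn ran from -0.23 to 0.018 with 1 library left out, the latter without picrotoxin 4. The relation to total molecules ran from 0.43 to 0.66 with 1 library left out, passing the threshold after adjustment without DMSO 3 (0.66), and that to Rn45s from -0.42 to 0.17. The cause was not tested, beyond fewer libraries or other genes tested.

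Libraries with the same number deviated together by -0.021 to 0.039 (correlation, 6 pairs, 0 above 0.1), and the main fit did not pair them. Of the 9580 genes in that correlation 3741 had a mean above 10, and counting noise in the rest lowers it. The check therefore cannot decide whether libraries of the same number shared a batch. With the replicate block 43 genes passed, beside 5 in the main fit.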
